A study of Mus musculus with 4 samples.

Results

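The 10 genes described here code for receptors of natural killer (NK) cells in the mouse: Klra4, Klra7, Klra8 and Klra9 of the Ly49 family, Klrb1a, Klrb1c and Klrb1f of the NKR-P1 family, Klrg1 and Klre1, which are further killer cell lectin-like receptors (KLR), and Ncr1, which codes for NKp46. They were chosen by name, with earlier results of these data known. All 10 were among the 13071 genes of the joint RNA table of B16 and LLC tumours and among the 12801 genes of the table of B16 alone. The study was a single-cell RNA sequencing survey of subcutaneous mouse tumours on the 10x Genomics platform, with 1 library per group and 3 mice pooled in each. The B16 library came from B16 tumours, a melanoma line, grown in C57BL/6J mice. The LLC library came from LLC tumours, a Lewis lung carcinoma line, in mice labelled F11r fl/fl LysM-Cre-, which carry a floxed F11r gene and no LysM-Cre. A further LLC library, used here only for monocytes and macrophages, came from C57BL/6J mice and was read together with antibody tags (CITE-seq). No Cre, drug or other treatment is named for the groups used here, and tumour line and mouse strain cannot be told apart between the B16 and LLC libraries.

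NK cells decide whether to kill by adding up signals from activating and inhibitory receptors. Ly49 receptors bind class I molecules of the major histocompatibility complex or viral look-alikes of them, and each mouse NK cell is known to switch on only some of the Ly49 genes, so that NK cells of 1 mouse differ in their receptors. Klra4 (Ly49D) and Klra8 (Ly49H) code for activating members and Klra7 (Ly49G) and Klra9 (Ly49I) for inhibitory ones. Klrb1c codes for NK1.1, the antigen by which NK cells of C57BL/6 mice are usually sorted, Klrb1a and Klrb1f for its relatives NKR-P1A and NKR-P1F. Klrg1 codes for an inhibitory receptor of cadherins that marks mature NK cells and some effector and regulatory T cells. Klre1 codes for a receptor that pairs with KLRI proteins, and NKp46, the product of Ncr1, is an activating receptor found on nearly all mouse NK cells.

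In GENCODE vM21 on mm10, 9 of the 10 genes lie on chromosome 6 and Ncr1 lies on chromosome 7. All are protein-coding. The Ly49 genes lie within 189.6 kilobases on the minus strand: Klra4 at chr6:130043731-130067271, Klra8 at chr6:130115226-130129898, Klra9 at chr6:130178675-130193112 and Klra7 at chr6:130218605-130233322. Klrb1a lies at chr6:128609227-128623533, Klrb1c at chr6:128778485-128789215 and Klrg1 at chr6:122270596-122282882, also on the minus strand. Klrb1f at chr6:129045901-129057464, Klre1 at chr6:129577905-129585827 and Ncr1 at chr7:4337724-4345164 lie on the plus strand. Klrb1c overlaps Gm44511 on its own strand, and Klrb1f overlaps Gm43992 and Gm44000 on the opposite strand. The Ly49 genes resemble other genes of their family, which bears on how surely reads can be given to them. Of the stretches of 50 bases in the annotated protein-coding transcripts, 33.1% for Klra8, 31.5% for Klra9, 12.3% for Klra7 and 4.68% for Klra4 also occurred in a transcript of another gene. For Klrb1c the share was 17.0% (mostly in Gm44511) and for Klrb1a 9.92%, whereas for Klrb1f, Klrg1, Klre1 and Ncr1 no such stretch was shared. No source read for this work says how reads in shared stretches were counted, so the values of the 4 Ly49 genes, Klrb1a and Klrb1c are less certain than those of the other 4 genes.

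RefSeq promoter sequences (GRCm38.p6, the same build) were at hand for 9 of the 10 genes, all but Klrg1. The 250 bases before the start are printed for the 4 Ly49 genes, because their detection overlapped in single NK cells and differed outside the NK cluster, and for Ncr1, which was detected in most NK cells. Capitals mark matches of the letters TGTGGT, the core that RUNX factors bind, on either strand.
Klra4: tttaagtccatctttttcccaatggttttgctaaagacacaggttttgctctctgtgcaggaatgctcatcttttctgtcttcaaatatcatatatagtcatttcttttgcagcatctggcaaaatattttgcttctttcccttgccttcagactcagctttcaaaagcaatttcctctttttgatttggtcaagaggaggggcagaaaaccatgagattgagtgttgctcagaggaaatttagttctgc
Klra8: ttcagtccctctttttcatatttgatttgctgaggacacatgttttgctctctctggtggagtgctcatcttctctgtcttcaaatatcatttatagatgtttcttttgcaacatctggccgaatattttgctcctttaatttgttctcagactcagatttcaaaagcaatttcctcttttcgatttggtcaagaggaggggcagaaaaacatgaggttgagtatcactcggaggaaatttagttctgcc
Klra7: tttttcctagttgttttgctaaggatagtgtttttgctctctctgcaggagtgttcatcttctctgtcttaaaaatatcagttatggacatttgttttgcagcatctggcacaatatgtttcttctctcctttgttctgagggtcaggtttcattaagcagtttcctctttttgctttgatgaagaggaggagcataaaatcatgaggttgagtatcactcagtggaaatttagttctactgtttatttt
Klra9: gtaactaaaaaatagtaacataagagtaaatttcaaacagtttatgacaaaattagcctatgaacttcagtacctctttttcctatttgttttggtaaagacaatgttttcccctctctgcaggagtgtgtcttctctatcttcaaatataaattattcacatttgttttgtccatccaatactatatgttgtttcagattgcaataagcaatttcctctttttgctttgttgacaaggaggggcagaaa
Ncr1: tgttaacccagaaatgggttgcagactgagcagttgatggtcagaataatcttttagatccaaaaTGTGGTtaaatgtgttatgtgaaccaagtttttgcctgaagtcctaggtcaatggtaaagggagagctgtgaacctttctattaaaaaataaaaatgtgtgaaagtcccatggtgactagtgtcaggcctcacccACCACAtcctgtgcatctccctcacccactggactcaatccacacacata
The Ly49 windows, all read from the minus strand, are chr6:130067272-130067521 for Klra4, chr6:130129899-130130148 for Klra8, chr6:130233323-130233572 for Klra7 and chr6:130193113-130193362 for Klra9, and that of Ncr1 is chr7:4337474-4337723 on the plus strand. In a global alignment, the windows of Klra4 and Klra8 were 84.5% identical, those of Klra7 and Klra8 74.7%, and those of Klra4 and Klra7 74.0%. That of Klra9 was 47.8%, 47.3% and 44.8% identical to those of Klra8, Klra4 and Klra7. These rest on 151 of 316, 149 of 315 and 146 of 326 columns, against 212 of 251 for Klra4 and Klra8. Columns with a gap count as not identical, and alignments longer than the 250 bases hold such gaps. The lower values of Klra9 thus include unmatched stretches and do not measure how alike the matched bases were. Of the 9 windows, 4 held TGTGGT (Klrb1a, Klrb1c, Klre1 and Ncr1) and 2 held GGAAGT, a core of ETS factors (Klrb1c and Klrb1f). None held AGGTGT, a core of T-box factors, and the matches did not overlap each other. On either strand, TGTGGT occurred in 14.0%, GGAAGT in 19.7% and AGGTGT in 11.8% of the 32851 promoter windows in the table. None of the 3 motifs was found in the 4 Ly49 windows. The RefSeq starts used for Klrb1a, Klrb1c and Klre1 lay 599, 574 and 308 bases from the GENCODE gene starts. The windows of these genes, and so their matches, lie inside the gene spans given above. For the Ly49 genes, Klrb1f and Ncr1 the RefSeq and GENCODE starts were the same.

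The joint table held 6870 cells with 72355330 unique molecular identifiers (UMIs) for B16 and 13021 cells with 93977259 for LLC. The medians were 8315 UMIs per cell in B16 and 6174 in LLC. The authors' joint annotation put 276 B16 cells and 131 LLC cells in a cluster called NK cells, with medians of 4032 and 4142 UMIs per cell. Across the NK list of 11 marker genes, that cluster held 22647 CPM (UMIs of a gene or list per 1000000 UMIs of the cluster) in B16 and 11269 CPM in LLC. Tbx21 and Itga2, which belong to that list, were at 0 in the entire LLC library, so no ratio is given for them. The T cell list summed to 666 CPM in B16 NK cells and 500.1 CPM in LLC NK cells with none of its 8 genes at 0, and a Cd3d, Cd3e or Cd3g UMI was found in 53 and 22 NK cells. The libraries shared 29 cell barcodes in the joint table. With 1 library per group there is no replicate, so the text gives no p-value, and each interval is an exact 95% interval for counting error only. A ratio of at least 1.5 is called higher and one of at most its inverse lower.

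All 10 receptor genes together gave 12596 UMIs in B16 and 3111 in LLC, of which the NK cluster held 41.6% in B16 and 76.2% in LLC. Among clusters with at least 50 cells, the NK cluster was the highest for 9 of the 10 genes in each library. As background, it was the highest cluster for 6.45% of genes with at least 20 UMIs in B16 and for 7.33% in LLC. These are genes for NK receptors, and the authors named the cluster for NK cells. Its top rank was thus largely set in advance, and the background does not test it. Klrg1 was the exception, second to the cluster Tregs-1 in B16 and second to the cluster Naive T cells in LLC. The genes differed in how closely they kept to the NK cluster. Klra4 had 93.3% of its UMIs there in B16 and 91.3% in LLC, and Klra8 had 90.1% and 82.4%. Ncr1 had 82.0% of its UMIs there in B16 and 90.9% in LLC. Klra7 had 51.8% in B16 and 80.3% in LLC, and Klre1 had 18.4% in B16 and 68.1% in LLC. The cluster CD8 T cells held 787 B16 and 4 LLC cells, and the part of such differences in these shares was not tested.

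**Figure D1:**
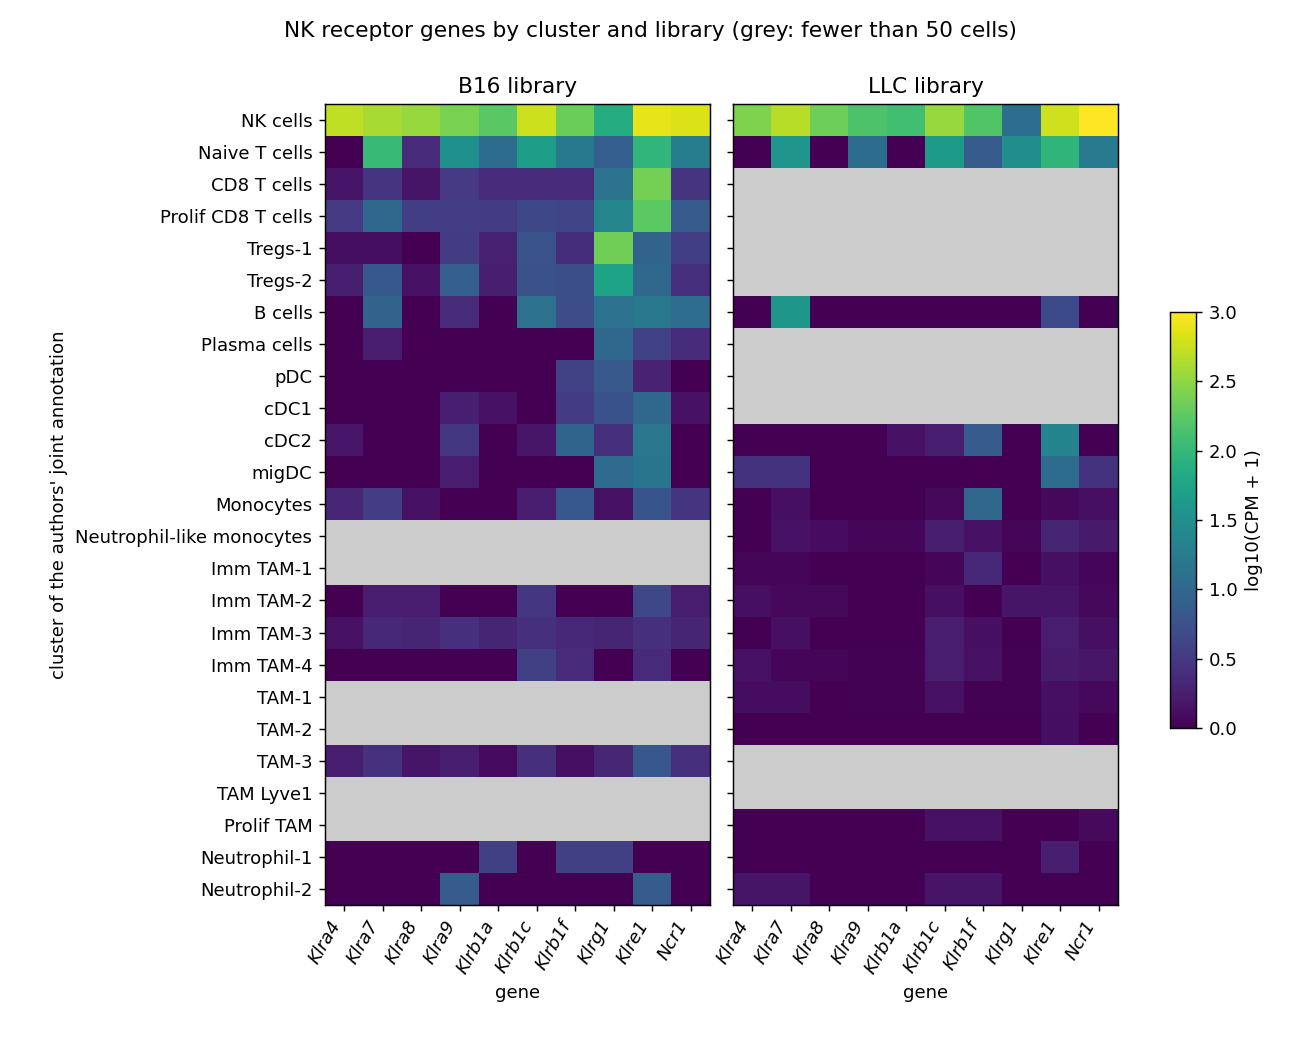
Summed level of each receptor gene as log10(CPM + 1) (colour) in the clusters of the authors' joint annotation (rows), for B16 (left) and LLC (right); grey rows had fewer than 50 cells in that library. The NK row is the brightest for every gene except Klrg1, and Klre1 is also bright in CD8 T cell rows of B16.

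The next highest cluster sets the scale of this restriction. Klra4 reached 517 CPM in B16 NK cells and 2.15 CPM in the cluster Prolif CD8 T cells, which is 240.5-fold lower there (interval 151 to 408). In LLC it had 262 CPM in NK cells, and the next cluster, migDC, rested on 1 UMI. Klra8 had 340.4 CPM in B16 NK cells, 136-fold (87.7 to 222) above the same proliferating CD8 cluster, and in LLC 216 CPM in NK cells, with 2 UMIs in the next cluster. No other ranked cluster exceeded 2.51 CPM for Klra4 or Klra8 in B16, or 1.76 CPM in LLC. Ncr1 stood 38.4-fold (29.1 to 51.5) above the next cluster in B16 and 58.3-fold (29.4 to 136) in LLC, in each case the cluster Naive T cells. Klrb1c stood 12.6-fold (10.5 to 15.2) above Naive T cells in B16 and 8.31-fold (5.27 to 13.8) in LLC. Klrb1a stood 16.2-fold (11.2 to 24.3) above that cluster in B16. In LLC its next cluster, cDC2, held 1 UMI. Klra9 stood 7.94-fold (6.29 to 10.1) above Naive T cells in B16 and 13.8-fold (5.71 to 43.3) in LLC.

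Within the NK cluster, 5 of the 10 receptor genes were higher in B16 than in LLC, none was lower and 5 lay between. As background, 15.5% of the 7354 genes with at least 20 UMIs were higher in B16 NK cells and 9.31% were lower. The median log2 ratio of B16 over LLC was 0.57 over the 10 receptor genes and 0.10 over all genes with a UMI in both libraries. It was 0.58 over the 9 genes of the NK list with enough UMIs, of which 4 were higher and none was lower. The shift was thus not particular to the receptor genes. In the same cells the macrophage list summed to 804 CPM in B16 and 3457 CPM in LLC, and the neutrophil list to 56.5 CPM in B16 and 1883 CPM in LLC, with no gene of either list at 0. Leaving out cells in which 0.5% or more of the UMIs came from these lists kept 271 B16 and 115 LLC cells. 4 of the 10 genes were then higher and none was lower.

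The activating Ly49 genes were higher in B16 NK cells. Klra4 summed to 677 UMIs or 517 CPM in B16 NK cells, against 188 UMIs or 262 CPM in LLC NK cells, a ratio of 1.97 (1.68 to 2.33). Klra8, whose product binds a protein of mouse cytomegalovirus in C57BL/6 mice, summed to 446 UMIs or 340.4 CPM in B16 and 155 UMIs or 216 CPM in LLC, a ratio of 1.58 (1.31 to 1.91). The call for Klra8 ended, at a ratio of 1.39, without the cells rich in macrophage and neutrophil UMIs, and at 1.38 when each cell was thinned to 2000 UMIs. The inhibitory Ly49 genes went apart. Klra9 had 247 CPM in B16 and 143 CPM in LLC, a ratio of 1.72 (1.37 to 2.17). Its ratio was 1.34, below the threshold, when each cell counted equally. Klra7 had 406 CPM in B16 and 476 CPM in LLC, a ratio of 0.852 (0.743 to 0.979), which is within the threshold.

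Of the NKR-P1 genes, Klrb1c was higher, with 769 UMIs or 587 CPM in B16 NK cells and 249 UMIs or 347 CPM in LLC NK cells, a ratio of 1.69 (1.47 to 1.96). Klrb1a had 172 CPM in B16 and 123 CPM in LLC, a ratio of 1.40 (1.09 to 1.81), and Klrb1f had 209.9 CPM in B16 and 153 CPM in LLC, a ratio of 1.37 (1.09 to 1.72). Neither reached the threshold. Klre1 had 770.1 CPM in B16 and 599 CPM in LLC, a ratio of 1.29 (1.15 to 1.44). Ncr1 had 685 CPM in B16 and 974 CPM in LLC, a ratio of 0.703 (0.636 to 0.777), just short of being called lower. Ncr1 and Klra7 were thus the members whose summed level was greater in LLC NK cells.

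Klrg1 had the largest ratio of the 10 genes in the NK cluster. It had 92 UMIs or 70.2 CPM in B16 NK cells and 8 UMIs or 11.1 CPM in LLC NK cells, a ratio of 6.30 (3.07 to 15.0). The B16 UMIs came from 53 cells and the LLC UMIs from 6 cells. The ratio was between 3.31 and 8.81 under every alternative run, with the lowest value when each cell counted equally.

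**Figure D2:**
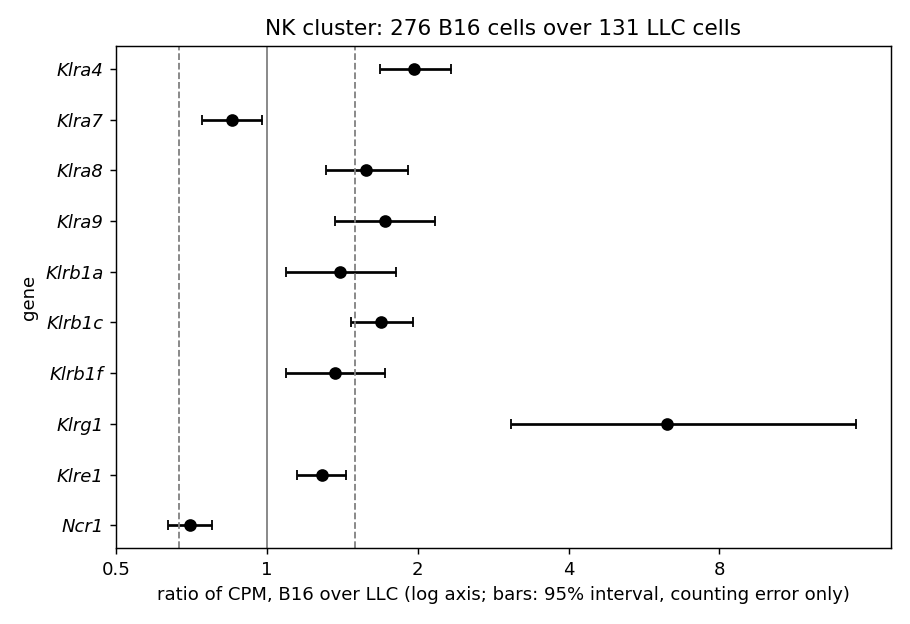
Ratio of CPM, B16 over LLC, in the NK cluster for each receptor gene (points), on a log axis with exact 95% intervals (bars); the solid line is at 1 and the dashed lines mark the 1.5-fold threshold in each direction. Klrg1 lies farthest right at 6.30, and Klra7 and Ncr1 are the genes left of 1.

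The share of NK cells with at least 1 UMI gave a view of the receptors per cell. Klra4 was detected in 39.5% (33.7 to 45.5) of B16 NK cells and 32.8% (24.9 to 41.6) of LLC NK cells, and Klra8 in 33.7% and 32.1%. Klra7 was detected in 45.7% of B16 and 50.4% of LLC NK cells, and Klra9 in 34.8% and 27.5%. Each Ly49 gene was therefore seen in a part of the NK cells of either library, and the intervals of B16 and LLC overlapped for all 4. Klrb1c was found in 88.0% (83.6 to 91.6) of B16 NK cells and 76.3% (68.1 to 83.3) of LLC NK cells, with intervals that did not overlap. Klre1 was found in 90.6% of B16 and 90.8% of LLC NK cells, and Ncr1 in 85.9% and 87.0%. Klrb1a was found in 45.7% and 42.0%, and Klrb1f in 53.6% and 58.0%. Klrg1 was found in 19.2% (14.7 to 24.4) of B16 NK cells and 4.58% (1.70 to 9.70) of LLC NK cells.

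B cells, which should lack these receptors, were taken for comparison. Their cluster was not free of other cells' genes: the NK list summed to 1509 CPM in B16 and 308 CPM in LLC B cells, and the T cell list to 1229 CPM and 278 CPM, against 101 CPM and 15.0 CPM of the NK list in Monocytes. Of 220 B16 B cells (median 2432 UMIs) between 0% and 2.73% had a UMI of each of the 10 genes, and of 102 LLC B cells (median 1896 UMIs) between 0% and 0.980%. Only the Klrg1 share in LLC NK cells came near these values. After thinning every NK cell to 2000 UMIs, which left out 22 B16 and 11 LLC cells, Klrg1 was expected in 11.0% of B16 and 2.68% of LLC NK cells. Klrb1c was then expected in 69.3% of B16 and 52.1% of LLC NK cells, Klra4 in 35.8% and 25.5%, Klra9 in 26.0% and 17.0%, and Klra7 in 36.7% and 43.1%. Klra8 came to 26.4% in B16 and 25.2% in LLC, and Klrb1f to 32.7% and 32.5%, nearly the same in the 2 libraries.

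**Figure D3:**
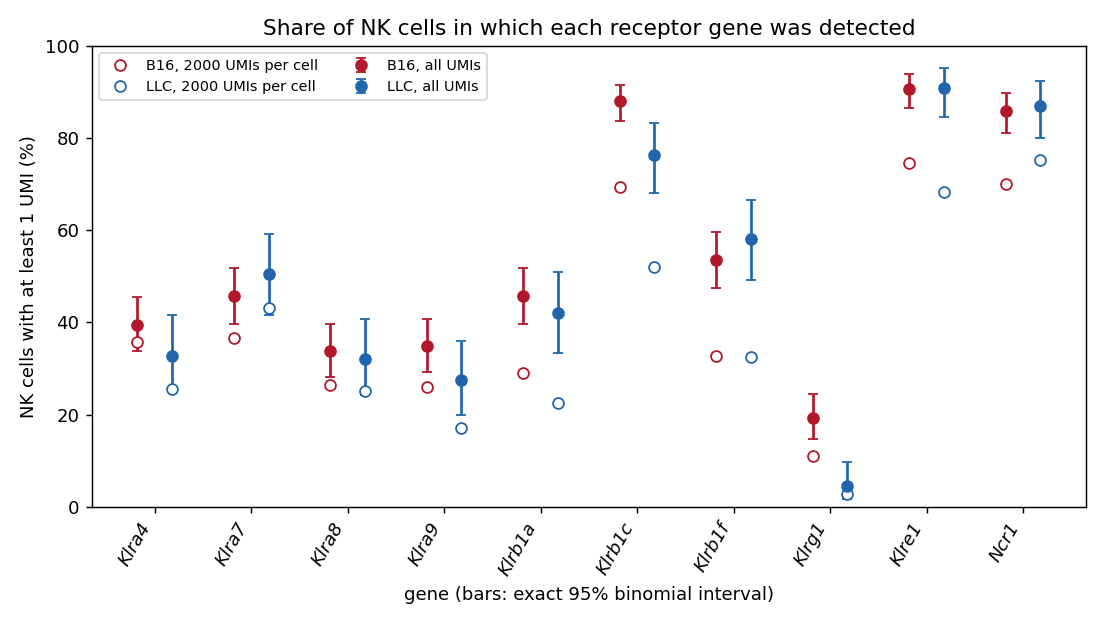
Share of NK cells with at least 1 UMI of each receptor gene in percent (filled points, with exact 95% binomial intervals) and the share expected after thinning each cell to 2000 UMIs (open points), B16 left of LLC for each gene. Klrg1 and Klrb1c have intervals that do not overlap between B16 and LLC, while Klre1 and Ncr1 lie above 85% in both before thinning.

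Every NK cell of either library had a UMI of at least 1 of the 10 genes, and the median was 5 of 10 in both. Counting the 4 Ly49 genes alone, 25.0% of the B16 NK cells had none, 24.3% had 1, 27.5% had 2, 18.5% had 3 and 4.71% had all 4. Among LLC NK cells the shares were 27.5%, 28.2%, 21.4%, 19.8% and 3.05% in the same order. All 6 pairs of Ly49 genes were found together in more B16 NK cells than the product of their shares gives, and 5 of the 6 in LLC, where Klra7 and Klra9 were level (18 cells against 18.1). For Klra4 and Klra8, the activating pair, it was 53 B16 cells against 36.7 and 23 LLC cells against 13.8. For the mixed pair Klra7 and Klra8 it was 56 B16 cells against 42.5 and 29 LLC cells against 21.2. Klra8 was found in 48.6% of the Klra4-positive and 24.0% of the Klra4-negative NK cells of B16, and in 53.5% and 21.6% of those of LLC. The median depth of Klra4-positive and Klra4-negative cells was 4032 UMIs each in B16, and 4657 and 4078 UMIs in LLC. Klra7 was found in 56.9% of the Klra4-positive and 38.3% of the Klra4-negative cells of B16, and in 76.7% and 37.5% of those of LLC. For Klra9 the contrast was small: it was found in 41.3% of Klra4-positive and 30.5% of Klra4-negative B16 cells, and in 30.2% and 26.1% of LLC cells. Of stretches of 50 bases, Klra7 shared only ones found in Klra13-ps, and Klra4 mostly ones found in Klra1. Klra8 shared most with Klra14-ps and next most with Klra9. The part of shared sequence in the joint detection was not tested.

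**Figure D4:**
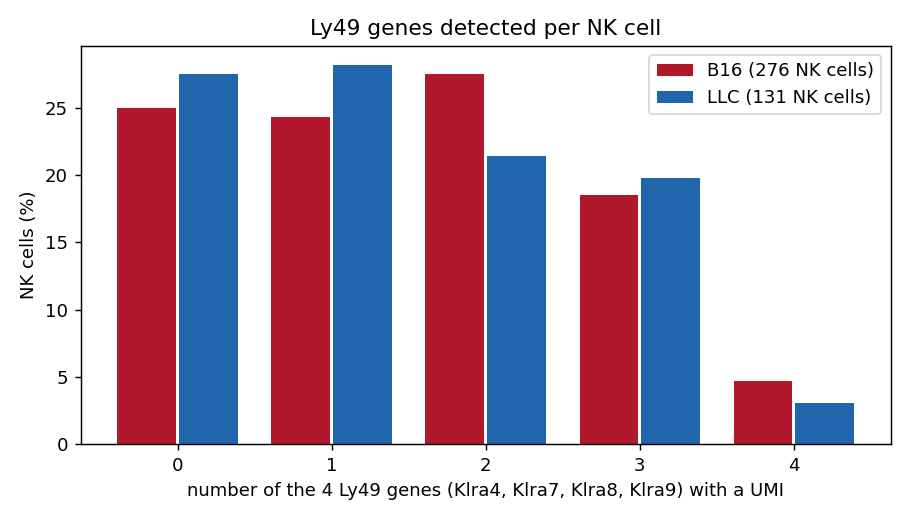
Percentage of NK cells (y axis) by the number of the 4 Ly49 genes with at least 1 UMI (x axis), B16 bars left of LLC bars. No Ly49 UMI was found in 25.0% of B16 and 27.5% of LLC cells, and all 4 genes in 4.71% and 3.05%.

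Klrg1 was at its highest in the cluster Tregs-1, named by the authors for regulatory T cells. In Tregs-1 it had 773 UMIs or 223 CPM in B16 (247 of 546 cells) and 66 UMIs or 502 CPM in LLC (24 of 41 cells), a ratio of 0.443 (0.345 to 0.579). As background, 20.9% of genes were lower in B16 in that cluster. Its direction was thus opposite to that in NK cells. Foxp3, which codes for the defining transcription factor of regulatory T cells, was detected in 79.4% of the Klrg1-positive and 77.9% of the Klrg1-negative Tregs-1 of B16, and in 66.7% and 58.8% of those of LLC. Cd3e was found in 95.5% of the Klrg1-positive and 90.6% of the Klrg1-negative Tregs-1 of B16. In LLC it was found in 10 of the 24 positive cells (41.7%) and 70.6% of the negative ones. The median depths of positive and negative cells were 5153 and 4125 UMIs in B16, and 2789 and 3088 UMIs in LLC. Whether all the Klrg1-positive LLC cells are T cells was not tested. In Tregs-2, Klrg1 had 53.8 CPM in B16 and 53.3 CPM in LLC, a ratio of 1.01 (0.651 to 1.63). The NK cluster lay below Tregs-1 in B16, at 0.316 of its level (0.251 to 0.392), and the intervals of NK cells and Tregs-2 overlapped. Among B16 CD8 T cells Klrg1 had 12.8 CPM in the cluster CD8 T cells and 22.0 CPM in Prolif CD8 T cells. B cells of B16 had 12.1 CPM (5.55 to 23.1) on 9 UMIs. In the authors' annotation of B16 alone, B cells had 0 Klrg1 UMIs (up to 6.60 CPM) and CD8 T cells 12.0 CPM (9.43 to 15.0), so the overlap with B cells depended on the annotation. In Naive T cells it had 21 UMIs or 6.94 CPM in B16 and 14 UMIs or 29.2 CPM in LLC, a ratio of 0.238 (0.115 to 0.505), where 15.5% of genes were lower. The depth of the LLC clusters is small, with 41 Tregs-1 cells and 131546 UMIs in all.

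Klre1 was shared between NK cells and CD8 T cells. In B16 it had 237 CPM in CD8 T cells (2443 UMIs in 528 of 787 cells) and 176 CPM in Prolif CD8 T cells (1474 UMIs in 273 of 437 cells). The NK level of 770.1 CPM was 3.24-fold (3.01 to 3.49) that of CD8 T cells. Ncr1 had 20 UMIs in the same 787 CD8 T cells, which is 122 Klre1 UMIs per Ncr1 UMI, against 1.12 in B16 NK cells. Of the Klre1-positive CD8 T cells 99.4% had a Cd8a UMI and 99.1% a Klrd1 UMI (Klrd1 codes for CD94). Of the Klre1-negative ones 96.5% had Cd8a and 77.2% Klrd1. The positive cells were deeper, with a median of 11790 UMIs against 10239 UMIs. LLC held 4 cells in that cluster, so its CD8 T cells give no usable level. In Naive T cells Klre1 had 92.5 CPM in B16 and 91.8 CPM in LLC, a ratio of 1.01 (0.731 to 1.42).

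Klre1 also appeared at low level in conventional dendritic cells of the cDC2 cluster, with 28 UMIs or 14.4 CPM in B16 (23 of 166 cells) and 56 UMIs or 21.7 CPM in LLC (41 of 314 cells). Ncr1 had 0 UMIs in these cells of either library. All 23 and all 41 Klre1-positive cDC2 also had a Klrd1 UMI, against 73.4% of the Klre1-negative cDC2 in B16 and 81.7% in LLC. The median depths of positive and negative cDC2 were 11786 and 11760 UMIs in B16, and 8636 and 7283 UMIs in LLC. H2-Aa, a class II gene, was found in all the positive cells and in 98.6% and 98.9% of the negative ones, and 1 positive cell in each library had a Cd3e UMI. The cDC2 intervals, 9.56 to 20.8 CPM in B16 and 16.4 to 28.2 CPM in LLC, overlapped those of B cells, which had 11 Klre1 UMIs in B16 and 1 in LLC, and those of migDC. In B16 the B cells also held 8 Ncr1 UMIs. The LLC cDC2 interval lay above those of all the monocyte, macrophage and neutrophil clusters with at least 50 cells, such as Monocytes at 0.172 CPM (0.00436 to 0.959), Imm TAM-4 at 0.666 CPM (0.364 to 1.12) and Neutrophil-1 at 0.779 CPM (0.0197 to 4.34). In B16 the cDC2 interval lay above those of Monocytes, at 5.05 CPM (2.76 to 8.48), and TAM-3, at 5.53 CPM (4.57 to 6.63). The authors' annotation of B16 alone split these cells otherwise. There the intervals of Mono-NC, at 12.5 CPM (8.01 to 18.6), Mac-Prolif, at 11.5 CPM (9.11 to 14.3), and Mac-1, at 9.68 CPM (7.99 to 11.6), overlapped it. Those of Mono, Immature Mac and Mac-2 lay below it. The B16 contrast thus depended on the annotation.

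Klra7 was the Ly49 gene with the widest presence among T cells. In the cluster Naive T cells it had 323 UMIs or 107 CPM in B16 (87 of 743 cells) and 17 UMIs or 35.5 CPM in LLC (8 of 185 cells), a ratio of 3.01 (1.85 to 5.23). Klra9 had 31.1 CPM in B16 and 10.4 CPM in LLC in this cluster, a ratio of 2.98 (1.23 to 9.38). As background, 11.1% of genes were higher in B16 Naive T cells. Klra4, by contrast, had 0 UMIs in the Naive T cells of both libraries, which, at the limit of 3 counts that a count of 0 allows, leaves room for a share of cells with a UMI of up to 0.404% in B16 and 1.62% in LLC (exact upper bounds 0.495% and 1.97%), and Klra8 had 4 UMIs in B16 and 0 in LLC. Klrb1a had 32 UMIs in B16 and 0 in LLC, which makes it at least 1.69-fold higher in B16 against a floor of 3 counts in LLC. The exact interval of that ratio starts at 1.30, below the threshold. Klrb1f was called higher in B16 on few counts, with 46 UMIs or 15.2 CPM in B16 and 3 UMIs or 6.26 CPM in LLC (ratio 2.43, 0.780 to 12.2). Klrb1c had 46.6 CPM in B16 and 41.7 CPM in LLC, and Ncr1 had 17.8 CPM in B16 and 16.7 CPM in LLC.

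The Klra7-positive cells of the B16 Naive T cluster were set beside the Klra7-negative ones for genes chosen after their values were seen, as a description. A Cd3e UMI was found in 86.2% of the 87 positive cells and 81.7% of the others. Cd8b1 was found in 8.05% of the positive and 39.8% of the negative cells, Cd4 in 2.30% and 18.8%, and Cd8a in 20 of the 87 positive cells and 37.7% of the negative cells. Fcer1g, which codes for an adaptor of NK receptors, was found in 79.3% of the positive and 29.6% of the negative cells. Ikzf2, which codes for the transcription factor Helios, was found in 80.5% and 26.2%, Klre1 in 55.2% and 12.0%, and Klrb1c in 36.8% and 8.23%. Ncr1 was found in 14.9% of the positive and 1.68% of the negative cells. The positive cells were somewhat deeper, with a median of 4310 UMIs against 3674 UMIs. The 8 positive cells of LLC included 0 with Cd8b1 or Cd4, 5 with Fcer1g and 4 with Ikzf2. The label does not match the cluster in full, since Cxcr6, a gene of tissue-resident and effector T cells, was found in 285 of its 743 B16 cells.

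**Figure D5:**
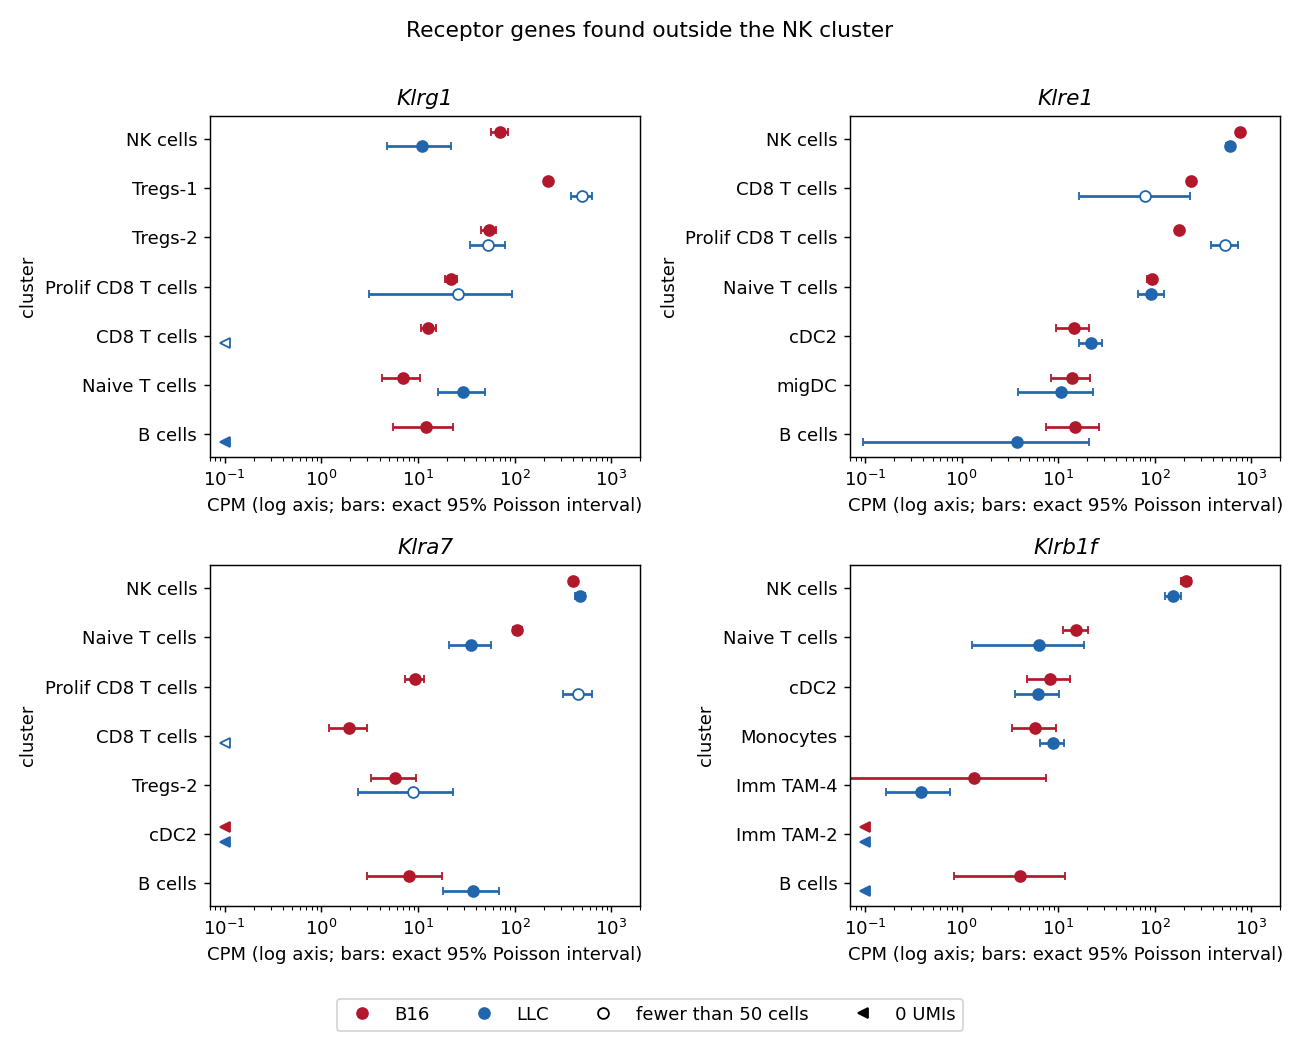
CPM of Klrg1, Klre1, Klra7 and Klrb1f (log axes, with exact 95% Poisson intervals) in NK cells and 6 other clusters, B16 above LLC in each row; open points mark clusters with fewer than 50 cells and triangles 0 UMIs. Klrg1 is highest in Tregs-1 in both libraries, and the B16 CD8 T cells lie at 237 CPM for Klre1.

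The LLC cells of the cluster Prolif CD8 T cells were mixed, and 5 of the 11 had an Ncr1 UMI. All 11 had 0 UMIs of Cd8a. None of those 5 had a Cd3e, Trac, Cd8a or Cd8b1 UMI, all 5 had Mki67, a gene of dividing cells, and 4 had Eomes, a transcription factor of NK cells. Of the other 6 cells 4 had a Cd3e UMI, 4 had Trac, 1 had Cd8b1, 5 had Mki67 and 0 had Eomes. The 11 cells together held 11 Cd3e, 15 Trac, 45 Trbc2 and 4 Cd8b1 UMIs. Summed over the 11 cells, Ncr1 had 402 CPM, Klra7 454 CPM, Klra8 350.1 CPM and Klre1 532 CPM, and Klra4 had 0 UMIs. In the 437 B16 cells of the same cluster Ncr1 had 6.33 CPM, Klra7 9.31 CPM and Klra8 2.51 CPM, and 354 of them had a Cd8a UMI. No ratio between the libraries is drawn for it, since the cells of LLC differ from those of B16 in their T cell genes. In LLC, 1 B cell held all 10 Klra7 UMIs of that library's B cell cluster.

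Klrb1f had the most UMIs of the 10 genes in the cluster Monocytes of each library. In B16 Klre1 came close to it there, with 14 UMIs or 5.05 CPM, while in LLC Klre1 had 1 UMI. Klrb1f was not particular to monocytes either. In cDC2 it had 16 UMIs or 8.22 CPM in B16 and 16 UMIs or 6.21 CPM in LLC. In the joint table the cluster Monocytes had 16 Klrb1f UMIs or 5.78 CPM in B16 and 51 UMIs or 8.77 CPM in LLC, a ratio of 0.658 (0.350 to 1.17). As background, 8.27% of genes were lower in B16 Monocytes. Ncr1 had 5 UMIs in those of B16 and 2 in those of LLC. All 13 and all 45 Klrb1f-positive Monocytes had a UMI of Ccr2, the chemokine receptor of inflammatory monocytes, against 77.8% of the Klrb1f-negative ones in B16 and 87.6% in LLC. In B16, 3 of the 13 positive cells had an Nkg7 UMI, against 8.29% of the negative ones, and 1 had Ncr1. None of the 45 in LLC had either. The positive cells were deeper, with medians of 7868 UMIs against 6294 in B16 and 6394 against 5418 in LLC. In the table of monocytes and macrophages, Klrb1f had 5.87 CPM in Monocytes and 0.495 CPM in the other subsets of B16, 11.9-fold higher (5.09 to 28.5). In the CITE-seq LLC library it had 13.4 CPM in Monocytes and 0.499 CPM in the others, 26.8-fold higher on 39 and 27 UMIs. In the LLC library it had 11.5 CPM in Monocytes and 0.381 CPM in the others, 30.3-fold higher (17.9 to 52.9). As background, 0.673% of genes in B16, 0.315% in CITE-seq LLC and 0.276% in LLC were at least 10-fold higher in Monocytes of this table. The counts behind these ratios were small, with 12 of 396, 37 of 835 and 41 of 738 Monocytes holding a UMI. Over all cells of that table the 10 genes summed to 131 UMIs in B16, 187 in CITE-seq LLC and 145 in LLC. Ncr1 had 8, 6 and 11 of these and none of the CITE-seq Monocytes had an Ncr1 UMI.

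The CITE-seq cells, 10131 monocytes and macrophages, carried antibody tags for 5 of the receptors. The mean tag count per cell was 0.528 for CD335 (NKp46), 0.0726 for KLRG1, 0.0595 for Ly49D, 0.407 for Ly49H and 0.0614 for NK1-1. Of the 9 isotype control tags, 8 had means between 0.0248 and 0.268 and the rat IgG1 lambda control had 0.890, with 3932 of its 9012 tags in 10 cells. CD335 and Ly49H thus exceeded 8 of the 9 controls, while KLRG1, Ly49D and NK1-1 lay within their range. Without the cells holding at least 10 tags of the antibody in question, the mean was 0.173 for CD335 and 0.394 for Ly49H. On the same footing it was 0.502 for the rat IgG1 lambda control and 0.228 for the rat IgG1 kappa control. The remaining controls had means between 0.0248 and 0.0782, below both CD335 and Ly49H. CD335 counts were uneven, as 45 cells with at least 10 tags held 3600 of its 5345 tags. Those 45 cells had 0 Ncr1 UMIs and 0 UMIs of the other receptor genes. Of them 23 were in the subset TAM-4, which held 2606 of the 10131 cells. The 45 cells also had more tags of all kinds, with a median of 910.0 tags against 537 in the other cells. Up to 10 cells had at least 10 tags of an isotype control.

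The other genes of the receptor pathways were read in NK cells against the same background of 15.5% higher and 9.31% lower. Of 17 other KLR and Ly49 genes 9 had enough UMIs, and 2 were higher, 1 lower and 6 between. Klrc2, an activating partner of CD94, had 217 CPM in B16 and 125 CPM in LLC (ratio 1.73, 1.36 to 2.22). Klri2, a partner of KLRE1, had 201 CPM in B16 and 119.8 CPM in LLC (ratio 1.68, 1.31 to 2.17). Klra2 had 7 UMIs in B16 and 14 in LLC (ratio 0.274, 0.0936 to 0.725). Of 11 adaptor and phosphatase genes 4 were higher and none lower. Fcer1g, which NKp46 signals through, had 2494 CPM in B16 and 1254 CPM in LLC (ratio 1.99, 1.85 to 2.14), Cd247 a ratio of 2.11, Hcst a ratio of 1.59, and Sh2d1a, with 176 CPM in B16 and 117 CPM in LLC, a ratio at the threshold. Tyrobp, the DAP12 adaptor of Ly49D and Ly49H, had 2901 CPM in B16 and 2396 CPM in LLC, a ratio of 1.21 (1.14 to 1.28).

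Of 10 NK maturation genes with enough UMIs, 6 were higher in B16, 1 was lower and 3 lay between. The intervals of 2 of the 6 included 1, Cx3cr1 at a ratio of 1.85 (0.981 to 3.75) and Prdm1 at 1.64 (0.810 to 3.61). S1pr5, the sphingosine receptor of mature NK cells, had 59 UMIs or 45.0 CPM in B16 and 5 UMIs or 6.96 CPM in LLC (ratio 6.47, 2.62 to 20.6). Cma1 had 95.4 CPM in B16 and 19.5 CPM in LLC (ratio 4.89, 2.81 to 9.21), and Cd7 378 CPM and 150.4 CPM (ratio 2.51, 2.04 to 3.12). Itgam, also a myeloid gene, had 53.4 CPM in B16 and 117 CPM in LLC (ratio 0.457, 0.328 to 0.635). Of 11 cytotoxicity genes 4 were higher, 3 lower and 4 between. Gzma, a granzyme gene, had 6942 CPM in B16 and 2059 CPM in LLC (ratio 3.37, 3.19 to 3.56), and the chemokine gene Ccl4 634 CPM and 97.5 CPM (ratio 6.50, 5.09 to 8.42). Gzmc, another granzyme gene, had 1585 CPM in B16 and 6239 CPM in LLC (ratio 0.254, 0.241 to 0.268), and Ifng 76.3 CPM and 157 CPM (ratio 0.485, 0.367 to 0.640).

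Over the whole table, the 5 genes highest in B16 NK cells by the interval bound nearest to 1 were Ccl4, H2-Eb1, Gzma, H2-Aa and Klrg1. The 5 lowest were S100a8, S100a9, Fn1, Gzmf and Arg1. Of these S100a8, S100a9, Fn1 and Arg1 are genes of neutrophils, monocytes or macrophages, and H2-Aa and H2-Eb1 are genes of antigen-presenting cells. The part of other cells' RNA in those values was not tested. Gzmf, a granzyme gene, had 2 UMIs in B16 and 82 UMIs in LLC NK cells. The genes most like the summed receptor genes over 50 cluster-by-library points were Sh2d2a (Pearson r = 0.917 of log2(CPM + 1)), Gzmb (0.903), Klrc1 (0.895), Sh2d1a (0.894), Cst7 and Prkcq (both 0.883), Sytl3 (0.882), Camk2n1 (0.877), Txk (0.874) and Il18r1 (0.869). The points share libraries and depth and include clusters with fewer than 50 cells, and the values are descriptive. The receptor genes themselves, each of which is part of that sum, had r between 0.524 for Klra4 and 0.872 for Klre1.

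The ligand genes were read in the monocytes and macrophages of the joint table, 2742 cells in B16 and 9194 in LLC, whose subsets differed between the libraries. Of 17 ligand genes 12 had enough UMIs, and 7 were higher in B16, 4 were lower and 1 lay between, where 11.9% of all genes were higher and 11.9% lower. H2-K1, a class I gene whose product is a ligand of Ly49 receptors, had 1815 CPM in B16 and 884 CPM in LLC (ratio 2.05, 2.03 to 2.08), and B2m, the shared light chain, had 3747 CPM and 1739 CPM (ratio 2.15, 2.14 to 2.17). H2-D1 had 2134 CPM in B16 and 1497 CPM in LLC, a ratio of 1.43 (1.41 to 1.44). Cdh1, which codes for the KLRG1 ligand E-cadherin, had 72 UMIs or 2.15 CPM in B16 and 893 UMIs or 11.6 CPM in LLC (ratio 0.186, 0.144 to 0.236). Of the Clec2 genes on the ligand list, Clec2g had 2.78 CPM in B16 and 5.14 CPM in LLC (ratio 0.541, 0.427 to 0.680). Other Clec2 genes of the list went the other way and were more abundant. Clec2i had 14.1 CPM in B16 and 8.58 CPM in LLC (ratio 1.64, 1.46 to 1.85), and Clec2d 128 CPM and 59.4 CPM (ratio 2.15, 2.06 to 2.24).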

How the data were processed

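Single-cell RNA was measured in B16 and LLC tumours, with antibody tags in a further LLC library. Cell Ranger and the mm10 genome are named in the submitters' processing notes. The authors deposited raw UMI counts of RNA and tags after filtering of cells and genes, per the labels of the tables, with their own cluster names. Cell and gene filters, sorting and doublet handling: not given in the sources used here. From these counts, UMIs were summed per library and cluster and divided by the cluster's total (CPM). Intervals at 95% were exact Poisson for CPM, Clopper-Pearson for shares and conditional binomial for ratios. They cover counting error only. Genes needed 20 UMIs over both libraries, and 1787 genes with 0 UMIs in an entire library were left out of ratios. Thinned shares are expectations over all draws. No doublet caller was run. An alternative removed the 6% of cells per library with most UMIs of a second of 6 lineages. The ratio code was tested on simulated data. The rule named every member, the 10 genes most like them, and in NK cells the 5 genes highest and 5 lowest by interval bound with at least 50 CPM. The members and lists were chosen with earlier results of these data known. Python 3.11.15, numpy 2.4.6, scipy 1.17.1 and pandas 2.3.3 were used.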

Additional observations from a re-analysis of the deposited data

Results flagged for a closer look

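Klrg1 moved in opposite directions in different cell types of the same libraries. Its ratio of B16 over LLC was 6.30 in NK cells, against 0.443 in Tregs-1 and 0.238 in Naive T cells. The LLC values rested on 8 UMIs in 131 NK cells, 66 UMIs in 41 Tregs-1 and 14 UMIs in 185 Naive T cells. Klrb1f had a ratio of 2.43 in Naive T cells, on 3 LLC UMIs, and of 0.658 in Monocytes. The intervals of both Klrb1f ratios include 1. With 1 library per tumour, the difference between cell types was not tested for either gene.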

How the results depend on the processing

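With 1 library per group, p-values and replicate error cannot be given, and differences of depth limit what is called. No paired analysis was possible because each group has 1 library and the labels give no replicate numbers. The number of receptor genes higher in B16 NK cells was 5, and 1 at 2-fold in place of 1.5-fold. The number lower was 0, and 1 under median-ratio scaling, where Ncr1 came to 0.654. The number higher was 4 to 6 under the other alternatives, including one chosen after seeing the data that left out NK cells rich in macrophage or neutrophil UMIs. Klra8 lost its call in 3 of them (1.47 under median-ratio scaling, 1.38 after thinning, 1.39 without those cells). Klra9 lost its call when each cell counted equally (1.34), and Klrb1a gained one without cells with a Cd3 UMI (1.58). Of the 70 single ratios that an alternative could change, 66 stayed within the interval and 4 moved (Klra4 at 1.52 and 1.51, Klra9 at 1.34, Klrb1f at 1.04), and none reversed. The cause was not tested. The NK cluster stayed highest for 9 of 10 genes in each library. Of 40 thinned shares 34 left their interval, since thinning removes UMIs, and the number of genes with a larger share in B16 was 6 unthinned, 8 at 2000 and 7 at 1000 UMIs. The Klrb1f ratio of Monocytes over the other subsets was 9.05 to 12.6 in B16, 22.1 to 27.3 in CITE-seq LLC and 29.1 to 34.9 in LLC.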
